A study of Mus musculus with 4 samples.

Results

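Lyz2, Lyz1, S100a8 and S100a9 are 4 transcripts that encode the antibacterial enzyme lysozyme and both chains of calprotectin. They were chosen by name, beside 13067 genes named in the deposited peak lists. The lower level of Lyz2, S100a8 and S100a9 in the knockout and the deposited peak values were already known. The cells were mouse bone marrow cells of strain C57BL/6 grown for 7 days with macrophage colony-stimulating factor, which turns marrow precursors into macrophages. The WT cells carried Mettl3fl/fl alleles, in which loxP sites flank part of the gene for the m6A-writing enzyme METTL3, and no Cre. The KO cells carried the same alleles and LysM-cre, a Cre recombinase expressed from the lysozyme 2 gene in macrophages, monocytes and neutrophils. Each genotype had 1 library of RNA precipitated with an antibody against m6A (IP) and 1 of unprecipitated RNA (input), so no difference has a replicate check and the depth of the libraries is unknown. The labels do not say how many animals gave the cells.

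Lysozyme cuts the peptidoglycan of bacterial walls. Mice have a pair of neighbouring lysozyme genes, Lyz2, used by macrophages and neutrophils, and Lyz1, used mainly by Paneth cells of the gut. Calprotectin is a dimer of S100A8 and S100A9, calcium-binding proteins that sequester zinc and manganese from microbes and are very abundant in neutrophils and monocytes. When released, it acts on Toll-like receptor 4 and on the receptor RAGE, encoded by Ager. m6A, the methyl mark placed on adenosines of messenger RNA by METTL3 and its partners, is concentrated near stop codons and in 3′ untranslated regions (3′ UTRs) and can shorten the life of a transcript. In the LysM-cre allele in general use, the Cre sequence sits at the start codon of Lyz2 and interrupts that copy of the gene. The labels do not say whether the KO cells had 1 or 2 such copies. Since the WT cells had no Cre, the Cre allele and the loss of Mettl3 cannot be told apart as sources of any difference in Lyz2. The same holds for every other difference between KO and WT given here.

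The upstream sequences of the genes are shown because the lysozyme pair is a gene duplication, and because S100a8 and S100a9 lie side by side and were both lower in KO. They do not show how alike the transcripts are, which was not measured. Each run holds 150 bases before and 10 bases after the gene start of RefSeq (build GRCm38), 5′ to 3′ on the gene's strand. Capitals mark matches to 3 motifs, searched on both strands and chosen with these sequences in view. The first is TATAAA, the box near which many genes begin transcription. The next is TTAAATA, a similar run picked from the Lyz2 sequence. The last is AGGAAGT, a site type bound by ETS factors such as PU.1, and here its match lies on the reverse strand, so the capitals show its complement. The motifs do not overlap one another. Lyz2 is at chr10:117282263-117282422, minus strand, and Lyz1 at chr10:117292859-117293018, minus strand. S100a8 is at chr3:90668921-90669080, plus strand, and S100a9 at chr3:90695712-90695871, minus strand.
Lyz2: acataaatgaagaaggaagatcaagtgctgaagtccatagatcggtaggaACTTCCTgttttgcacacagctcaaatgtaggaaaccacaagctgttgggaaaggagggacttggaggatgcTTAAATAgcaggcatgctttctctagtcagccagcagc
Lyz1: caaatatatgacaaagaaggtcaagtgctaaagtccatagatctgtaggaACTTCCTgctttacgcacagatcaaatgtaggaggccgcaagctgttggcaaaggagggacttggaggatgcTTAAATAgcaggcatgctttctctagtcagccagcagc
S100a8: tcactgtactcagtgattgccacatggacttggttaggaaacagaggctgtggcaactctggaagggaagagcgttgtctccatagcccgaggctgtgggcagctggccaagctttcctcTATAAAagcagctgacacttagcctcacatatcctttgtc
S100a9: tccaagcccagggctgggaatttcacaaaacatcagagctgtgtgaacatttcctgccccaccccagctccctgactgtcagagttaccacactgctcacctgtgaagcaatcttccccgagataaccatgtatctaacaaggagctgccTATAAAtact

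The Lyz2 and Lyz1 runs were identical at 144 of 161 aligned columns (89.4%). In a wider window that reaches past the printed runs, the 86 bases from position -50 to 36 around the start were the same in both. S100a8 and S100a9 were identical at 80 of 172 aligned columns (46.5%), close to the 45.0% of the unrelated pair Lyz2 and S100a8. AGGAAGT stood at -100 to -94 on the reverse strand in both lysozyme runs, and 5.52% of 32817 RefSeq gene starts held it in the same window on either strand. TTAAATA stood at -28 to -22 in both, and 2.29% of gene starts held it. TATAAA stood at -30 to -25 in S100a8 and at 1 to 6 in S100a9, so in S100a9 it began at the annotated start itself, and 7.89% of gene starts held it. TTNNGNAA, a loose C/EBP-type site searched on both strands and left in lower case, was found in Lyz2 (-55 to -48), S100a8 (-117 to -110) and S100a9 (-130 to -123), against 23.9% of gene starts. It overlapped none of the other motifs. Lyz1 had no TTNNGNAA in the window. A match here is a run of letters and not a bound site.

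Lyz2 was the most abundant of all 4403 transcripts with a listed level in the WT input and the third in the KO input. It stood at 10533 FPKM, fragments scaled to transcript length and library size, in WT and at 6615 in KO. The KO level was 62.8% of the WT level. S100a9 had 155 FPKM in the WT input and 90.2 in the KO input, which is 58.1% of WT. S100a8 had 77.7 FPKM in the WT input and 46.4 in the KO input, which is 59.7% of WT. All 3 were lower in KO, and by similar proportions. Lyz1 had no listed level, because the deposited table gives levels only for genes with a differential peak. The order of levels was therefore Lyz2, S100a9, S100a8 in both genotypes, with 1.998 times as much S100a9 as S100a8 in WT and 1.94 times in KO. Lyz2 stood 67.8 times above S100a9 in WT and 73.4 times in KO. With 1 library per genotype no spread can be set beside these differences. In a bulk library fewer cells of a kind and less RNA per cell cannot be told apart.

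**Figure D1:**
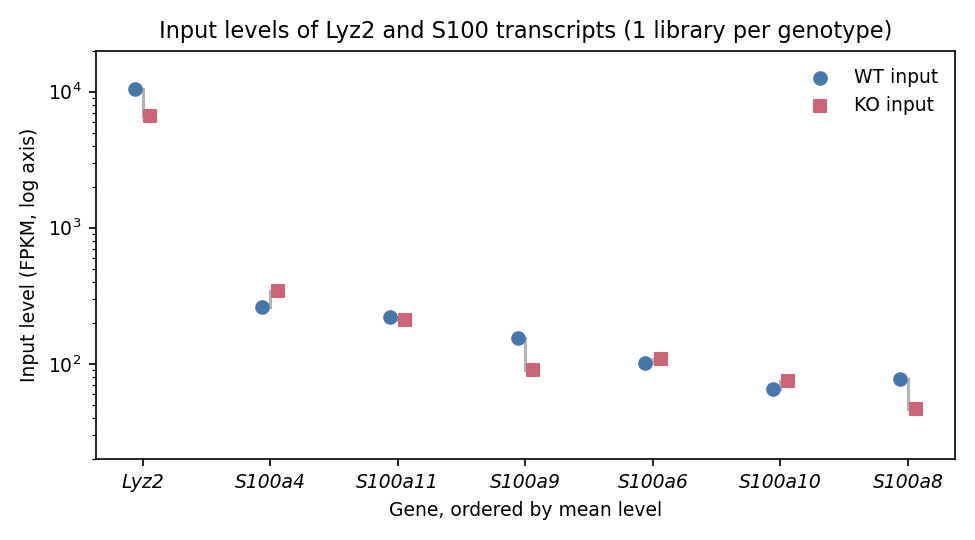
Input level in FPKM on a log axis for Lyz2 and the 6 S100 genes with a listed level of at least 1 FPKM, with 1 point for the WT input and 1 for the KO input, and no error bars since each point is 1 library. Lyz2, S100a9 and S100a8 are lower in KO (6615 against 10533, 90.2 against 155 and 46.4 against 77.7 FPKM), while S100a4 is higher (342 against 263).

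On the scale log2(FPKM + 1), which understates differences of low genes, KO minus WT was -0.78 for S100a9, -0.73 for S100a8 and -0.67 for Lyz2. Subtracting the median of all genes makes them -0.85, -0.80 and -0.74. None of the 3 reached a 2-fold difference, a size that 0.245% of 3679 genes averaging at least 1 FPKM reached downwards and 0.299% upwards. Since a lower level was a reason for choosing them, their place is a description only: 31% of these genes were below 0 and 1.11% were at -0.5 or lower, and the median gene was at 0.07. S100a9 was 17th, S100a8 20th and Lyz2 24th from the lowest difference. In the authors' deposited table the input difference had a p of 0.195 for S100a9, 0.217 for S100a8 and 0.260 for Lyz2, each with an adjusted p of 1. Those values compare the reads of 1 library with another and do not pass a threshold of 0.05.

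**Figure D2:**
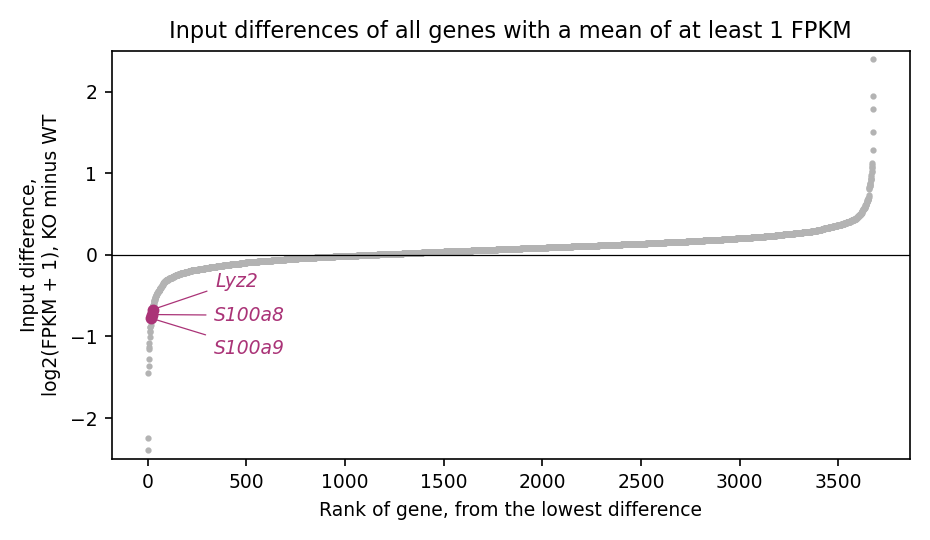
Input difference, log2(FPKM + 1) in KO minus WT, of 3679 genes in rank order, 1 point per gene. The 3 marked genes, S100a9 (-0.78), S100a8 (-0.73) and Lyz2 (-0.67), lie near the lowest end, at ranks 17, 20 and 24.

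The genes next to them in this order were mixed. Cdkn1c, a cell cycle inhibitor, lay at -0.74 just above S100a9, and the predicted gene 2210418O10Rik at -0.79 just below it. C1qb, a chain of complement C1q made by macrophages, lay at -0.74 just below S100a8, and the adaptor gene Lat at -0.69 just above it. Lyz2 had the predicted gene Gm15501 (-0.68) below and the phosphatase gene Phospho1 (-0.63) above. These neighbours differ from the 3 genes by less than 0.05 in each case, so the order among them carries no weight.

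The transcripts most like each gene over both inputs were found by the distance between log2(FPKM + 1) values, among 2348 other genes averaging at least 5 FPKM, leaving out predicted genes and pseudogenes. For Lyz2 they were Apoe, the apolipoprotein E gene (distance 0.46), and the ferritin chain genes Ftl1 (0.48) and Fth1 (1.68). Apoe and Ftl1 came near Lyz2 in abundance, while Fth1 was lower, at 3964 FPKM in the WT input and 3530 in the KO input. The differences of Apoe, Ftl1 and Fth1 did not match that of Lyz2, at -0.02, -0.06 and -0.17. For S100a8 they were Itgax, the CD11c integrin chain (0.11, with a difference of -0.61), the GTPase gene Rhoc (0.18, -0.49) and the ribosomal protein gene Rpl7a (0.25, -0.39). For S100a9 they were Ppia, cyclophilin A (0.23, -0.80), the annexin gene Anxa2 (0.41, -0.19) and Pea15a (0.45, -0.21). How the counting treated reads that fit other copies of a gene is not stated, and shared reads were not measured here. The likeness rests on 2 libraries.

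Of 10 lysozyme family genes, Lyz2 alone had a listed peak or level. Other genes of the S100 family did not share the lower level. Of 15 listed family members, 7 had a listed level and 6 had a mean of at least 1 FPKM: 3 were below 0 and 3 above, with a median of 0.01 against 0.07 for all genes, and so of -0.0639 once the latter is subtracted. S100a4, a regulator of cell motility, had 263 FPKM in the WT input and 342 in the KO input (difference 0.38). S100a6 stood at 102 and 109 (0.10) and S100a10, the partner of annexin A2, at 64.8 and 74.4 (0.20). S100a11 stood at 221 and 208 (-0.08). Thus S100a8 and S100a9 were the lowest of the 6, and none of the 6 reached 2-fold. Without them the median of the other 4 was 0.15.

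Genes beside these on the chromosome with a listed level had smaller differences, several of them above 0. Within 500 kb of Lyz2, 4 other genes had a listed level averaging at least 1 FPKM, with differences from -0.06 to 0.24. Among these, Yeats4, a chromatin reader gene 53 kb from Lyz2, had 21.0 FPKM in the WT input and 23.2 in the KO input. Within 500 kb of S100a8, 7 other such genes lay between -0.06 and 0.38, S100a4 (63 kb away) and S100a6 (54.7 kb away) among them.

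The m6A peaks of these transcripts were weak and reached the annotated 3′ end, and that of S100a8 in KO also crossed an intron. The authors listed 2 peaks in WT, 1 each in Lyz2 and S100a9, and 3 in KO, 1 each in Lyz2, S100a8 and S100a9, all annotated to the 3′ UTR. Lyz1 had none in either list. How the counting treated reads that fit both lysozyme genes is not stated, so the split of reads between them is uncertain. The fold enrichment over input given below is the authors' own value for each peak.

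In Lyz2 the WT peak covered chromosome 10 from 117277331 to 117277510 (build mm10, 180 bases, 1.34-fold). The KO peak ran from 117277331 to 117277630 (300 bases, 1.75-fold). Both begin at the last base of the Ensembl transcript ENSMUST00000092163, on the minus strand, so the KO peak holds the whole WT peak and reaches 120 bases further towards the coding region. RefSeq ends Lyz2 at 117277541, so the WT peak shares 0 bases with the RefSeq gene and the KO peak 90 of its 300. The signal thus lies mostly in a longer 3′ UTR that Ensembl annotates and RefSeq does not. Only 4.49% of WT peaks had a lower fold than Lyz2, and 17.1% of KO peaks did, yet by p Lyz2 was 474th of 16709 WT peaks and 60th of 21031 KO peaks. The log10 of p was -321 in WT and -1140 in KO. A transcript of this abundance thus combined a small enrichment with a very small p.

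In S100a9 the WT peak covered chromosome 3 from 90692632 to 90692719 (88 bases, 1.23-fold, p 0.00022, false discovery rate 0.00174). The KO peak ran from 90692632 to 90692835 (204 bases, 2.19-fold, p 7.9e-12). Both begin at the last base of ENSMUST00000069960 on the minus strand and lie wholly inside the RefSeq gene, and the KO peak holds the WT peak and 116 bases more. The WT peak was among the weakest of its list, with 1.59% of WT peaks lower in fold, and the KO peak was above 31.1% of the KO list.

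In S100a8 no WT peak was listed. The KO peak lay on chromosome 3 from 90669590 to 90670035, in blocks of 93 and 197 bases on either side of an intron, at 2.06-fold and p 1.3e-16, above 27.45% of the KO list. On the plus strand, its 3′ edge was 1 base past the RefSeq end of the gene. The assigned Ensembl transcript, ENSMUST00000198156, ends 71 bases earlier. The absence of a listed WT peak does not show an absence of m6A there, since the WT list holds only peaks with a p of up to 0.05. The ratio that the authors give at this site does not show m6A in WT either. The median peak was 3.74-fold over 391 exonic bases in the WT list and 3.15-fold over 330 in the KO list, so every peak of these genes was below the median in fold and in length.

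**Figure D3:**
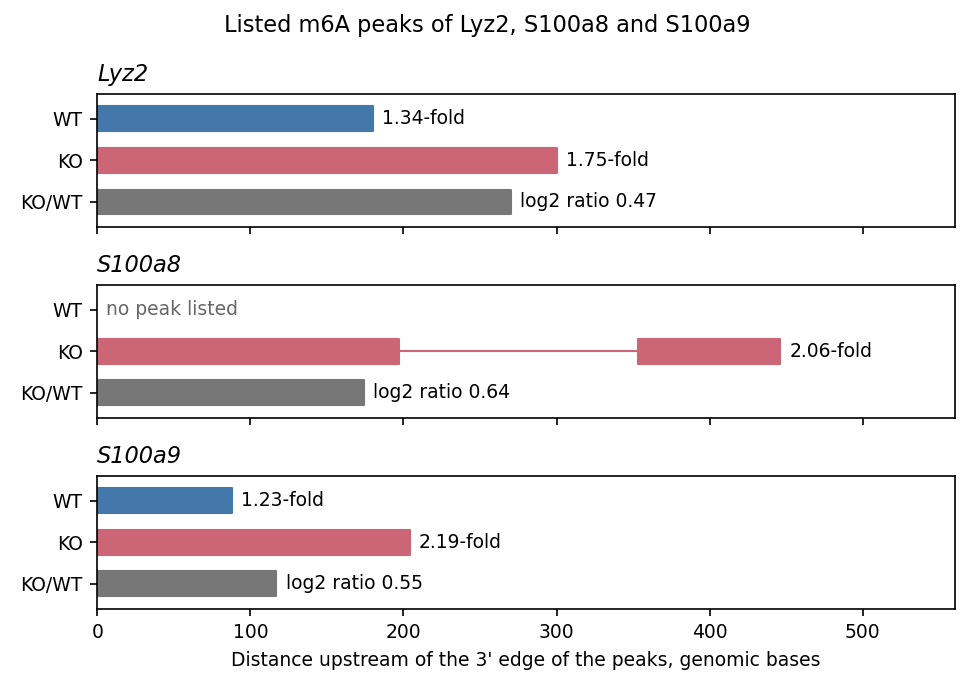
Listed peaks of Lyz2, S100a8 and S100a9 in WT, in KO and in the table of differences (KO/WT), as bars along the distance in genomic bases upstream of the peaks' shared 3′ edge, with the authors' fold enrichment or log2 ratio beside each. The thin line joins the 2 blocks of the S100a8 peak. The KO bars (300, 290 and 204 exonic bases) are longer than the WT bars (180 bases in Lyz2 and 88 in S100a9).

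The authors' ratio of enrichment was higher in KO at all 3 sites, the opposite of the general direction. In KO relative to WT, the authors' deposited table gave a log2 ratio of 0.64 for S100a8 (chromosome 3, 90669862 to 90670035, false discovery rate 1.55e-08). For S100a9 the authors' deposited table gave 0.55 (chromosome 3, 90692632 to 90692748, false discovery rate 0.00525). For Lyz2 the authors' deposited table gave 0.47 (chromosome 10, 117277331 to 117277600), with a log10 false discovery rate of -434. On a linear scale these are 1.56, 1.47 and 1.38 times the WT enrichment in the authors' deposited table. Of all 6050 listed differential peaks 30.4% were higher in KO, and of the 4382 in 3′ UTRs 36.8%. Each of the 3 sites lies inside the KO peak of its gene.

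Higher ratios were, however, the usual direction at 3′ UTR peaks of abundant transcripts. Of the 432 listed 3′ UTR peaks in genes averaging at least 50 FPKM, which all 3 genes exceed, 75.5% were higher in KO. Their median log2 ratio was 0.40 (interquartile range 0.11 to 0.54) in the authors' deposited table, so Lyz2 was inside that range and S100a9 and S100a8 just above it. Of these, all 10 peaks (100%) in the 9 genes with an input difference of -0.5 or lower were higher in KO, the 3 here among them, against 74.9% of the 422 peaks in the other genes. The 7 peaks that are left without Lyz2, S100a8 and S100a9 were all higher too. The threshold of 50 FPKM and that of -0.5 were set after these values were seen, and the 100% depends on both. Just below 50 FPKM, the 3′ UTR peak of Gadd45a (mean 47.2 FPKM, input difference -0.62) was lower in KO, at -0.105. That of Fabp4 (mean 49.1 FPKM, input difference -0.56) was higher, at 0.563. At input differences just above -0.5, the 3′ UTR peak assigned to Tma7-ps (mean 56.0 FPKM, difference -0.40) was lower in KO, at -0.365. The 3′ UTR peaks of Rhoc (mean 62.9 FPKM, difference -0.49) were higher, at 0.331 and 0.42. Rab7b missed both thresholds (mean 49.99 FPKM, difference -0.45), and its 3′ UTR peaks were lower, at -0.429 and -0.814.

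**Figure D4:**
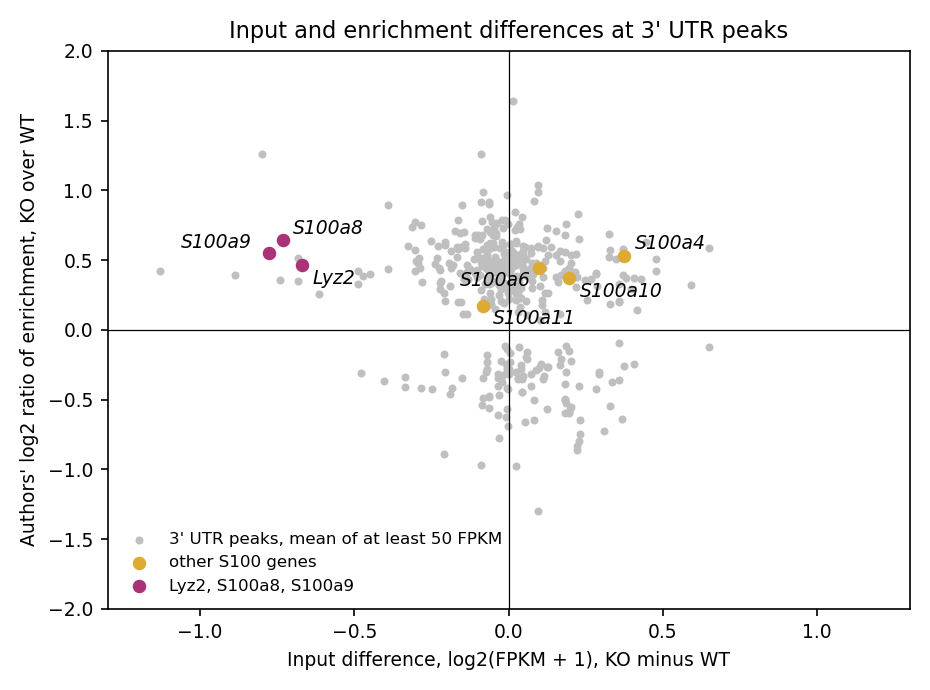
Authors' log2 ratio of enrichment, KO over WT, against the input difference, log2(FPKM + 1) in KO minus WT, for 432 3′ UTR peaks in genes averaging at least 50 FPKM, of which 2 lie outside the axes. Lyz2, S100a8 and S100a9 lie at the upper left (ratios 0.47, 0.64 and 0.55), and S100a4, S100a6, S100a10 and S100a11 are higher in KO as well with input differences from -0.08 to 0.38.

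Other S100 genes had a higher ratio in KO as well. By the authors' deposited table, all 7 differential peaks assigned to S100 genes, S100a8 and S100a9 included, had more enrichment in KO, with a median of 0.53. Of the others, S100a4 stood at 0.53, S100a6 at 0.45 and S100a10 at 0.37 in the authors' deposited table, and their KO input levels were above those of WT. S100a11, whose KO input was slightly lower (-0.08), stood at 0.17 in the authors' deposited table. The seventh, assigned to S100a14 (0.58 in the authors' deposited table, false discovery rate 0.0537), lies outside that gene in RefSeq. The 3′ UTR peaks of these 4 genes, which overlap the genes in RefSeq, were also of low fold: S100a4 had 1.29-fold in WT and 1.96-fold in KO, S100a6 1.15-fold and 2.30-fold, S100a10 1.31-fold and 1.93-fold, and S100a11 1.36-fold and 1.43-fold. The WT peak of S100a6 had a false discovery rate of 0.10.

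Among the most abundant transcripts, higher ratios were common as well. In the 15 genes averaging at least 1000 FPKM, 16 of 20 differential peaks had more enrichment in KO by the authors' deposited table. The authors' deposited table gave 0.49 for Ftl1, 0.52 for Fth1 and 0.39 for Apoe, whose input differences lay between -0.17 and -0.02, beside 0.47 for Lyz2. Gpnmb, a membrane glycoprotein of lysosome-rich macrophages, was the 1 other gene of the 15 with an input difference of -0.5 or lower (1839 FPKM in WT and 1145 in KO, difference -0.68), and the authors' deposited table gave its 2 peaks log2 ratios of 0.35 and 0.52. Mpeg1, which encodes the pore-forming protein perforin-2, came next at -0.21 (1370 FPKM in WT and 1185 in KO), and the authors' deposited table gave its 3 peaks ratios of -0.39, -0.17 and 0.27.

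The ratio and the input level are not independent measures, since the KO input stands below the KO IP in the enrichment. The product of the input ratio and the enrichment ratio, a rough index of IP signal at the peak in KO relative to WT, was 0.867 for Lyz2, 0.933 for S100a8 and 0.852 for S100a9. It assumes that input at the peak follows the whole transcript. How much of the higher ratio comes with the lower input was not tested.

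Of 6 calprotectin receptor genes, all had a peak in KO and 3 in WT, and only Tlr4 and Cd14 had a listed level and a differential peak. Tlr4 had 17.1 FPKM in the WT input and 22.9 in the KO input (0.40) and its co-receptor Cd14 had 153 and 198 (0.37). Their differential peaks were lower in KO, at -0.64 for Tlr4 and -0.26 for Cd14 in the authors' deposited table, where 30.4% of all peaks were higher. The Cd14 peak is, however, a 3′ UTR peak of a gene averaging at least 50 FPKM, and 75.5% of such peaks were higher. The Tlr4 peak was 39.4-fold enriched in WT and 21.8-fold in KO, far above any peak of the ligands' transcripts. Ager had a 3′ UTR peak of 1.54-fold in WT and 2.87-fold in KO and no differential peak, but both peaks lie outside the RefSeq gene. Ly96, Cd36 and Bsg had a listed peak in KO only, where the whole list was longer (21031 peaks against 16709 in WT). The Ly96 peak also lies outside the RefSeq gene and had a false discovery rate of 0.060.

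Transcription factors of myeloid cells, several of which act on lysozyme or calprotectin genes, did not share the lower level. Of 10 in the list 6 had a listed level, 2 below 0 and 4 above, with a median of 0.16, and none reached 2-fold. Spi1, which encodes PU.1, had 90.5 FPKM in the WT input and 101 in the KO input (0.16). Cebpa stood at 83.9 and 75.6 (-0.15), Irf8 at 27.6 and 27.4 (-0.01) and Stat3 at 11.6 and 13.1 (0.16). Of their 6 differential peaks 5 had a lower enrichment in KO by the authors' deposited table, where 30.4% of all peaks were higher. Among the 5 were Spi1 at -0.68 and Cebpa at -0.34. The Cebpa peak is a 3′ UTR peak of a gene averaging at least 50 FPKM, and 75.5% of such peaks were higher. That of Stat3 was higher at 0.73 in the authors' deposited table, with a false discovery rate of 0.106. Lysosomal enzymes and membrane proteins, which share the lysosome with lysozyme, were level: of 8 with a listed level 7 were above 0 and 1 below, with a median of 0.03 (-0.0435 once the median of all genes is subtracted) and a range from -0.18 to 0.13. Ctsb, cathepsin B, had 3398 FPKM in the WT input and 3496 in the KO input. Of 11 differential peaks of this list 9 had a higher enrichment in KO by the authors' deposited table, with a median of 0.40. Beside this, 75.5% of 3′ UTR peaks in genes averaging at least 50 FPKM were higher, with the same median of 0.40. One of the 9, that of Gusb at 0.07 in the authors' deposited table, had a false discovery rate of 0.065.

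S100a8 and S100a9 are also markers of neutrophils, cells that a marrow culture can retain, so the marker lists stand beside their levels. Of 13 neutrophil markers only S100a8 and S100a9 had a listed level, so their summed level (233 FPKM in WT and 137 in KO) is that of calprotectin alone. Of the other 11, Cxcr2 had a peak in both lists, Ltf in WT only, and Mmp9 and Lcn2 in KO only. The KO list was the longer. Ly6g, Csf3r, Retnlg, Mmp8, Camp, Ngp and Cd177 had none. Of 4 azurophil granule genes of neutrophil precursors, Mpo had a peak in WT only and Ctsg in both lists, and Elane and Prtn3 had none. Of 8 genes of specific and gelatinase granules, Ltf, Lcn2, Mmp9 and Pglyrp1 had a peak, that of Pglyrp1 in both lists, and none had a listed level. The share of all genes with a listed peak was not worked out, so these counts describe the lists only. The false discovery rate was above 0.05 for the peaks of Ltf and Mpo, the WT peak of Ctsg, all 3 KO peaks and the WT 3′ UTR peak of Cxcr2, and the weakest Pglyrp1 peak in each genotype. Monocyte markers had 1 listed level, that of the chemokine receptor gene Ccr2, at 3.63 FPKM in WT and 6.12 in KO. Levels of the others were not analysed here, and the part of neutrophils or monocytes in the lower calprotectin levels was not tested. Macrophage markers were present in both inputs: Cd68 had 1029 FPKM in the WT input and 994 in the KO input and Adgre1 had 247 and 269. Of 7 macrophage markers with a listed level 4 were below 0 and 3 above, with a median of -0.03, from -0.74 for C1qb to 0.51 for Fcgr1, and their sum was 2524 FPKM in WT and 2350 in KO. The dendritic cell marker Itgax was the 1 listed level of its list, at 71.9 and 46.7 FPKM (-0.61), and osteoclast markers had no listed level.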

How the data were processed

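IP and input RNA of WT and KO macrophages gave 4 libraries, grouped by sample title. Tools listed in the submitters' processing notes, without their roles, are edgeR, StringTie, ChIPseeker, HOMER, HISAT2 and fastp, and the build is mm10. The sources used here do not give the peak caller. Per the file headers, the authors deposited for each peak the ratio of IP to input as a fold enrichment, with its p-value and false discovery rate. They also deposited a log2 ratio of KO over WT enrichment for peaks with a p under 0.05. The authors' FPKM of each input is listed for genes with such a peak, with a p-value and an adjusted p. Other p-values of the files, held as log10, are the authors' deposited values too. All columns of per-sample values were used.

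Peak starts in the files are counted from 0, as block sizes show, and are printed here counted from 1. Input differences are log2(FPKM + 1), KO minus WT, for genes averaging at least 1 FPKM. No test was run on single libraries, and lists are described by counts and medians. Counts of genes with a listed peak stand without the share over all genes, which was not worked out. Overlap of WT and KO peaks needed 1 shared exonic base. Of the 4 genes all matched the RefSeq tables (GRCm38). The members and lists were chosen with earlier results of these data known. Named genes are the 4 members, the 3 genes most like each of them, the genes next in rank, and list and nearby genes with a listed level or peak, up to 6 from longer lists. Genes averaging at least 1000 FPKM, and a few others from longer lists, were chosen for naming with their values in view. The alternatives tried were a stricter fold, p and false discovery rate, centring, other pseudocounts, no filter on low values and reciprocal overlap. The arithmetic was tested on simulated data. Python 3.11.15, numpy 2.4.6, pandas 2.3.3 and matplotlib 3.10.9 were used.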

Additional observations from a re-analysis of the deposited data

How the results depend on the processing

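No peak of Lyz2, S100a8 or S100a9 had a fold of at least 4, so that setting left 0 of 2 WT and 0 of 3 KO peaks, and at a p of 1e-10 or lower 1 WT peak (Lyz2) and 3 KO peaks stood. All kept a false discovery rate under 0.05, as did the 3 differential peaks, which were also above the table's median. Of the 2 pairs of WT and KO peaks, 1 (Lyz2) overlapped over 50% of both. Subtracting the median input difference of all listed genes moved the median of the 3 genes from -0.73 to -0.80, that of the S100 family from 0.01 to -0.0639 (0.15 without S100a8 and S100a9, an alternative chosen after seeing the data), that of lysosomal genes from 0.03 to -0.0435, that of myeloid transcription factors from 0.16 to 0.0873 and that of macrophage markers from -0.03 to -0.11. Other pseudocounts moved none of these medians by 0.05, and neither did dropping the filter on low values. No paired analysis was possible because each group holds 1 sample. Leaving out a library was not possible for the same reason.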

Other observations

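Apart from Lyz2, S100a8 and S100a9, 8 genes averaging at least 5 FPKM, leaving out predicted genes and pseudogenes, had an input difference as low as that of Lyz2 or lower. Mgll, a lipase of monoacylglycerols, had 105 FPKM in the WT input and 47.5 in the KO input, and Bex1 had 68.9 and 36.8. C1qb stood at 545 and 326, while C1qa and C1qc, which encode the other chains of complement C1q, stood at 210 and 262 and at 374 and 365. The rest were Rn7sk, Cdo1, Ppia, Cdkn1c and Gpnmb. Whether reads from other copies of Ppia or Rn7sk enter their levels was not tested. These genes were named after their values were seen.

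Pglyrp1, a granule protein of neutrophils that binds peptidoglycan, the substrate of lysozyme, had no listed level but peaks assigned to its 3′ UTR, the highest at 49.3-fold in WT and 27.2-fold in KO, and no differential peak. All of them lie outside the gene in RefSeq.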
